A study of Mus musculus with 6 samples.

Results

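The 10 genes described here encode cytokines and chemokines made by 4T1 cells, a mouse mammary carcinoma line: Tslp, Il24, Il1a, Cxcl16, Cxcl1, Cxcl5, Ccl2, Csf1, Csf2 and Csf3. They were taken by symbol from the 23481 gene rows of the count table, and all 10 were present. Of these, 4 were chosen by their read counts in the library labelled shAsns-1, Tslp as higher there and Il24, Il1a and Cxcl16 as lower, so values of the 10 genes in that library are given as a description with no test. The other 6 were listed as products of the tumour cells. The series calls the cells 4T1, whereas the heading of its count table has 4T1_T, a name that the labels leave unexplained. All cells were infected with a short hairpin RNA and grown in DMEM with non-essential amino acids. The hairpins shAsns-1 and shAsns-2 target Asns, the gene of asparagine synthetase, and the control hairpin shRenilla targets a luciferase that mouse cells lack. Of the 6 libraries, shAsns-1 B held 0 reads at every gene, which left 1 library for shAsns-1 and 2 each for shAsns-2 and shRenilla. Nothing in the labels tells whether libraries A and B of a hairpin came from separate cultures, so the p-values measure only the spread between these libraries.

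Cytokines and chemokines are secreted proteins by which tumour cells act on leukocytes, blood vessels and each other. Chemokines draw cells that carry the matching receptor along a gradient, the colony-stimulating factors drive the production and survival of neutrophils and macrophages, and the epithelial cytokines signal injury to immune cells. 4T1 tumours are known for the granulocyte expansion that their secreted G-CSF, the product of Csf3, causes in mice. Many of these genes are induced through NF-kB and AP-1, and their messenger RNAs are commonly short-lived.

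Gene reads totalled 10244753 for the shAsns-1 label, 10472179 and 13888327 for shAsns-2, and 15955168 and 14287190 for shRenilla. Levels are CPM, reads per 1000000 gene reads after TMM scaling. Asns stood at 109 CPM in the library labelled shAsns-1, at 46.5 and 44.7 CPM in shAsns-2 and at 58.7 and 56.2 CPM in shRenilla, so the library labelled shAsns-1 goes against its label. Asns was not called in shAsns-2 against shRenilla (log2 fold change -0.34 with SE 0.0882 and adjusted p = 0.216 in edgeR's quasi-likelihood test). With the replicate letter A or B as a block in that test, Asns was called as lower in shAsns-2 (-0.33, adjusted p = 0.0388). The library labelled shAsns-1 also held reads at more genes, 17672 against 15052 to 15392 in the others. Its reads at 1102 olfactory receptor genes, which most cells keep silent, summed to 38.6 CPM, against 6.69 to 11 CPM elsewhere. Of 8 carcinoma markers, Cdh1, Krt18 and Krt8 were the most abundant and made up most of the sum. The 8 summed to 923 CPM in the library labelled shAsns-1, 1199 and 1182 CPM in shAsns-2 and 1144 and 1118 CPM in shRenilla. Such a sum does not identify the cell line. For shAsns-1 A against shRenilla, the median log2 fold change of the 8 was -0.52, from -1.89 for Esrp1 to 0.04 for Krt18. Of 14 leukocyte markers, 12 were in the table, and they summed to 11.7 to 14.5 CPM over the libraries, most of it from Cd14 and Cd68. The pan-leukocyte gene Ptprc had 6 reads in shAsns-1 A and 1 to 3 in each other library, and the myeloid gene Lyz2 had 0 in all. Itgam, also on this list, had 9 reads in shAsns-1 A, 2 in shAsns-2 A and 0 elsewhere. It was left out of the main fit by the filter on low counts. With no such filter, its log2 fold change in shAsns-1 A against shRenilla was 6.49. Since both shRenilla libraries had 0 reads of Itgam, nothing is read from the size of this value. Of 11 fibroblast and endothelial markers, summing to 30.9 to 41.3 CPM, nearly all signal was Pdgfra, and Lum was at 0 in all libraries. In such bulk libraries, fewer cells making a transcript and less transcript per cell cannot be told apart.

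In shRenilla cells, per exon length, Csf1 was the most abundant of the 10 transcripts and Csf2 the least. On the scale of CPM per 1000 exon bases, Csf1 stood at 69.1 ± 2.17 and Tslp at 67.4 ± 3.24 (SD, n = 2 each), and the libraries of these 2 genes overlapped. Il24 followed at 57.4 ± 4.34. These 3 lay above 94.2% or more of the 11748 tested genes with an exon length. A middle group held Ccl2 at 16.6 ± 0.965, Csf3 at 12.9 ± 0.48, Cxcl1 at 10.5 ± 2.41, Cxcl16 at 9.36 ± 0.561 and Cxcl5 at 9 ± 1.34 (SD, n = 2 each). Cxcl1, Cxcl16 and Cxcl5 overlapped as neighbours in this order, while Ccl2 and Csf3 did not overlap the genes next to them. Il1a, at 1.52 ± 0.224, and Csf2, at 0.719 ± 0.573, were at the low end, with 22.6% and 13.7% of tested genes below them. In the library labelled shAsns-1, Tslp stood first at 148, before Csf1 at 57.4. The middle there ended with Cxcl5 at 6.71, Cxcl1 at 6.31 and Cxcl16 at 3.89. Il1a was last there at 0.0975, from 2 reads, which is below the floor of 3 reads.

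**Figure D1:**
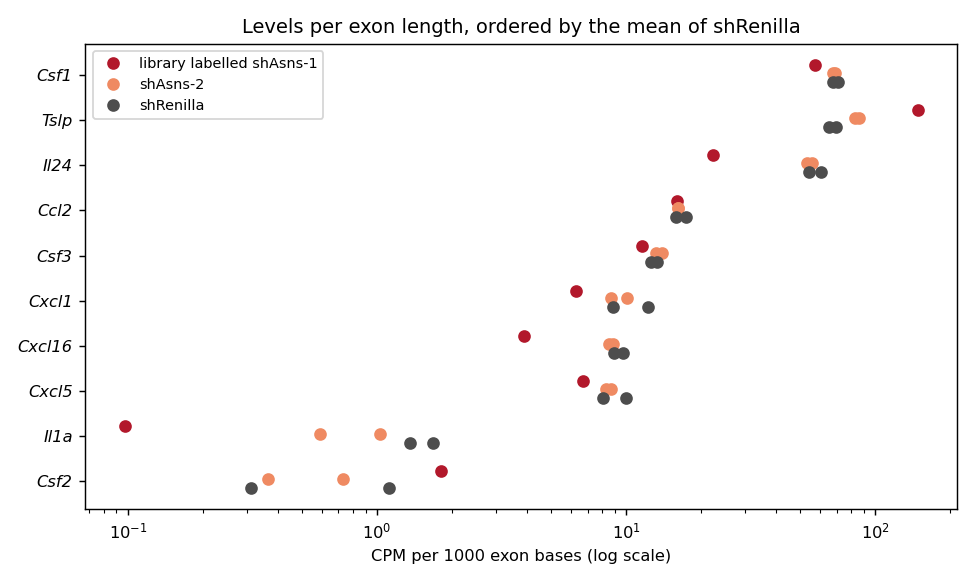
Level of each of the 10 transcripts per library, in CPM per 1000 exon bases on a log axis, with genes ordered by the mean of shRenilla. Each point is 1 library; Csf1, Tslp and Il24 lie highest in shRenilla, and the library labelled shAsns-1 stands to the right for Tslp and to the left for Il24, Cxcl16 and Il1a.

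Summed over the 10 genes, reads stood at 603 CPM in the library labelled shAsns-1, at 648 and 647 CPM in shAsns-2 and at 645 and 634 CPM in shRenilla. The sums are dominated by Csf1 and Tslp, and differences between single members largely cancel in them.

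Tslp encodes thymic stromal lymphopoietin, an epithelial cytokine that acts on dendritic cells and type 2 lymphocytes. In GRCm38 (mm10) it occupies bases 32815383 to 32819797 of chromosome 18, plus strand. It had 197 CPM in the library labelled shAsns-1, 115 and 110 CPM in shAsns-2, and 86.7 and 92.8 CPM in shRenilla. Both shAsns-2 libraries lay above both shRenilla libraries, and the library labelled shAsns-1 lay above all of them. Set against shRenilla, shAsns-2 had a log2 fold change of 0.33 (SE 0.0828; 1.25-fold, 95% interval 1.11 to 1.42). Its unadjusted p was 0.00108 and its adjusted p 0.205 over all 12457 genes tested (edgeR), so Tslp was not called. In the library labelled shAsns-1, Tslp was 2.19 times shRenilla (95% interval 2.07 to 2.33) and 1.75 times shAsns-2 (1.65 to 1.86). Intervals of these ratios cover counting error only.

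Il24 encodes an IL-10 family cytokine that signals to epithelial cells through receptors built on Il20rb. It lies on chromosome 1, from 130882074 to 130887454 on the minus strand. It had 31.1 CPM in the library labelled shAsns-1, 77.1 and 74.0 CPM in shAsns-2, and 75.2 and 83.7 CPM in shRenilla. The libraries of shAsns-2 and shRenilla overlapped, and the library labelled shAsns-1 was below all 4. In shAsns-2 its log2 fold change was -0.07 (SE 0.0871; 0.95-fold, 95% interval 0.837 to 1.08; adjusted p = 0.824, edgeR). Il24 in the library labelled shAsns-1 was 0.392 times shRenilla (95% interval 0.348 to 0.440, counting error only).

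Il1a encodes interleukin 1 alpha, an alarmin that is active in its uncleaved form and is released from injured epithelial cells. It lies on chromosome 2, from 129299610 to 129309972 on the minus strand. It had 2 reads in the library labelled shAsns-1, 12 and 28 reads in shAsns-2, and 43 and 48 reads in shRenilla. These are 0.192 CPM, then 1.17 and 2.04 CPM, then 2.69 and 3.32 CPM. No group overlapped another, but all levels were low. The 2 reads in the library labelled shAsns-1 lay below the floor of 3 reads, which is 0.289 CPM there. In shAsns-2 its log2 fold change was -0.85 (SE 0.321; 0.553-fold, 95% interval 0.346 to 0.885), with an unadjusted p of 0.0166 and an adjusted p of 0.413 (edgeR). Il1a in the library labelled shAsns-1 was 0.0643 times shRenilla, with a wide 95% interval of 0.00767 to 0.239 (counting error only).

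Cxcl16 encodes a chemokine that is made as a membrane protein, binds lipoproteins and attracts T cells bearing CXCR6 once shed. It lies on chromosome 11, from 70453983 to 70459984 on the minus strand. It had 11.7 CPM in the library labelled shAsns-1, 26.8 and 25.7 CPM in shAsns-2, and 27.1 and 29.5 CPM in shRenilla. Both shAsns-2 libraries were below both shRenilla libraries by a narrow margin. In shAsns-2 its log2 fold change was -0.11 (SE 0.106; 0.928-fold, 95% interval 0.795 to 1.08; adjusted p = 0.778, edgeR). Cxcl16 in the library labelled shAsns-1 was 0.416 times shRenilla (95% interval 0.341 to 0.504, counting error only).

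**Figure D2:**
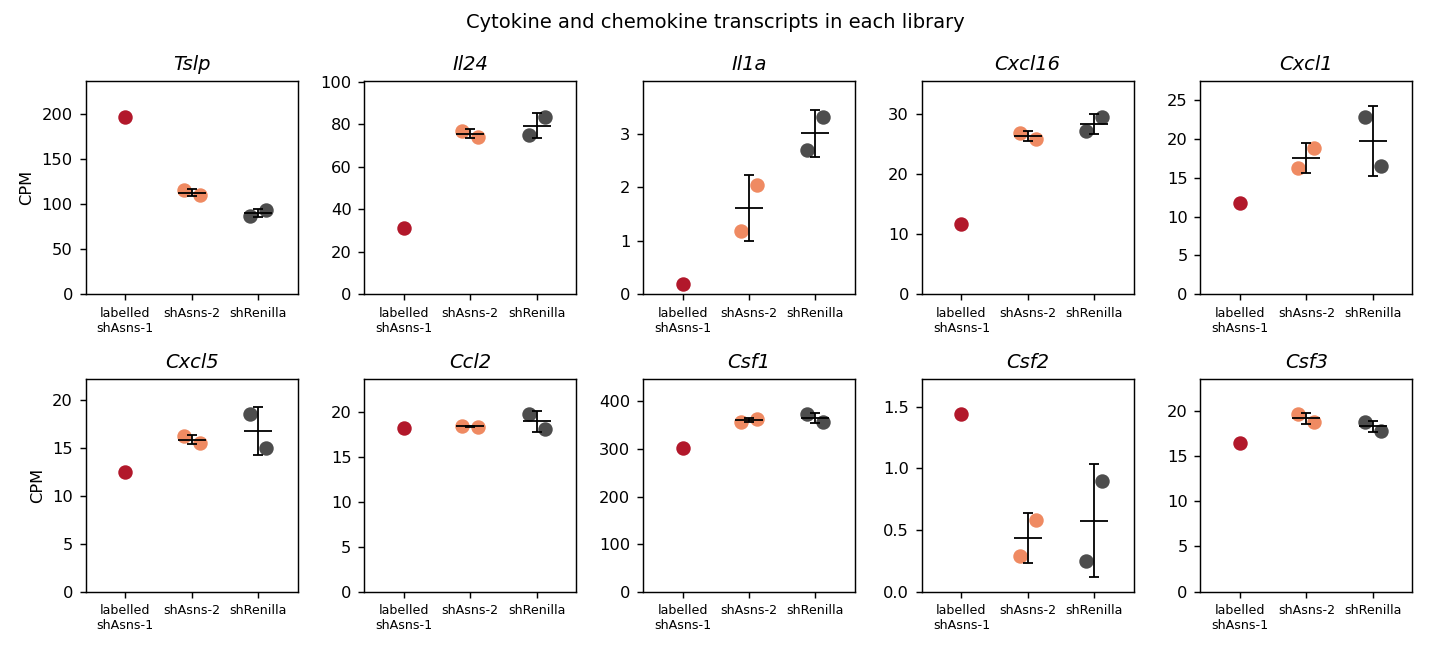
CPM of each of the 10 transcripts in each library, with linear axes that start at 0. Points are single libraries, and horizontal lines with bars are the mean and SD of the 2 libraries of shAsns-2 or shRenilla; Tslp is at 197 CPM in the library labelled shAsns-1 against 86.7 and 92.8 CPM in shRenilla, while Il24 is at 31.1 CPM against 75.2 and 83.7 CPM.

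Cxcl1 and Cxcl5 encode chemokines that attract neutrophils through CXCR2, and both lie on chromosome 5 (Cxcl1 from 90891241 to 90893115 and Cxcl5 from 90759360 to 90761624, plus strand). Cxcl1 had 11.8 CPM in the library labelled shAsns-1, 16.2 and 18.9 CPM in shAsns-2, and 22.9 and 16.5 CPM in shRenilla. Cxcl5 had 12.5 CPM in the library labelled shAsns-1, 16.2 and 15.5 CPM in shAsns-2, and 18.5 and 15 CPM in shRenilla. For both, shAsns-2 overlapped shRenilla, and the library labelled shAsns-1 was below the other 4. For Cxcl1 the log2 fold change with shAsns-2 was -0.16 (SE 0.147, adjusted p = 0.756, edgeR). For Cxcl5 it was -0.09 (SE 0.132, adjusted p = 0.873, edgeR). Both signs turned without shRenilla A, to 0.10 for Cxcl1 and 0.08 for Cxcl5. In the library labelled shAsns-1, Cxcl1 was 0.595 times shRenilla (95% interval 0.486 to 0.724) and Cxcl5 0.742 times (0.607 to 0.901), counting error only.

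Ccl2 encodes the chemokine that draws monocytes through CCR2. It lies on chromosome 11, from 82035571 to 82037453 on the plus strand. Of the 10 transcripts, Ccl2 was the only one whose level in the library labelled shAsns-1 lay within the range of the other 4. It had 18.2 CPM there, 18.4 and 18.3 CPM in shAsns-2, and 19.7 and 18.1 CPM in shRenilla. In shAsns-2 its log2 fold change was -0.04 (0.972-fold, 95% interval 0.82 to 1.15; adjusted p = 0.937, edgeR).

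The colony-stimulating factors Csf1 (M-CSF, for macrophages), Csf2 (GM-CSF, for granulocytes and macrophages) and Csf3 (G-CSF, for neutrophils) were not called in shAsns-2. Csf1 lies on chromosome 3, from 107741048 to 107760469 on the minus strand. It had 303 CPM in the library labelled shAsns-1, 357 and 363 CPM in shAsns-2, and 373 and 357 CPM in shRenilla. With 3153 to 5951 reads per library, its fold in shAsns-2 had a narrow 95% interval, 0.882 to 1.11 (log2 fold change -0.02, adjusted p = 0.957, edgeR). Csf1 in the library labelled shAsns-1 was 0.831 times shRenilla (95% interval 0.798 to 0.864, counting error only). Csf3 lies on chromosome 11, from 98701263 to 98703629 on the plus strand. It had 16.4 CPM in the library labelled shAsns-1, 19.6 and 18.7 CPM in shAsns-2, and 18.7 and 17.8 CPM in shRenilla. In shAsns-2 its log2 fold change was 0.07 (1.05-fold, 95% interval 0.884 to 1.24; adjusted p = 0.897, edgeR), and the ratio in the library labelled shAsns-1 was 0.895 (95% interval 0.749 to 1.06, counting error only).

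Csf2, on chromosome 11 from 54247271 to 54249667 on the minus strand, was close to the floor of 3 reads. It had 15 reads in the library labelled shAsns-1, 3 and 8 reads in shAsns-2, and 4 and 13 reads in shRenilla. The ratio in the library labelled shAsns-1 to shRenilla was 2.58 (95% interval 1.20 to 5.50, counting error only). As a fitted log2 fold change it was 1.35, against 0.68 without shRenilla A and 2.48 without shRenilla B. Only 2 libraries, the one labelled shAsns-1 and shRenilla B, held Csf2 at the 0.72 CPM of the low-count filter, and it was not tested in fits of shAsns-2 and shRenilla alone. The library labelled shAsns-1 also had the higher sum over olfactory receptor genes, 38.6 CPM, and the part of this in the Csf2 value was not tested. In shAsns-2 its log2 fold change was -0.29 with a 95% interval of 0.3 to 2.22 as a fold (adjusted p = 0.922, edgeR). It was 0.84 without shRenilla B and 0.05 without shAsns-2 A, so no direction could be read at this depth.

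Taking the 10 transcripts as a list, 0 were called in shAsns-2 against shRenilla by edgeR, where 0.0642% of all tested genes were called. DESeq2 also called 0. At an unadjusted p under 0.05, Tslp was higher and Il1a lower, 2 of 10, against 9.63% of all tested genes. Both shAsns-2 libraries lay above both shRenilla libraries for 1 member (Tslp; 20.6% of all tested genes) and below them for 2 (Il1a and Cxcl16; 20.7% of all tested genes). Counts this small are given as a description and nothing is read from them. The median log2 fold change of the list was -0.08, against -0.0014 over all tested genes. In the library labelled shAsns-1, 2 members (Tslp and Csf2) were at least 2-fold higher than shRenilla in the fit, against 1.85% of all tested genes, and 3 (Il24, Il1a and Cxcl16) at least 2-fold lower, against 1.74%. Nothing can be read from these last counts, since 4 of the 5 genes were picked for this level, and without shRenilla A the count of higher members was 1, with Csf2 lost. The 2 hairpins were compared with the same shRenilla libraries.

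**Figure D3:**
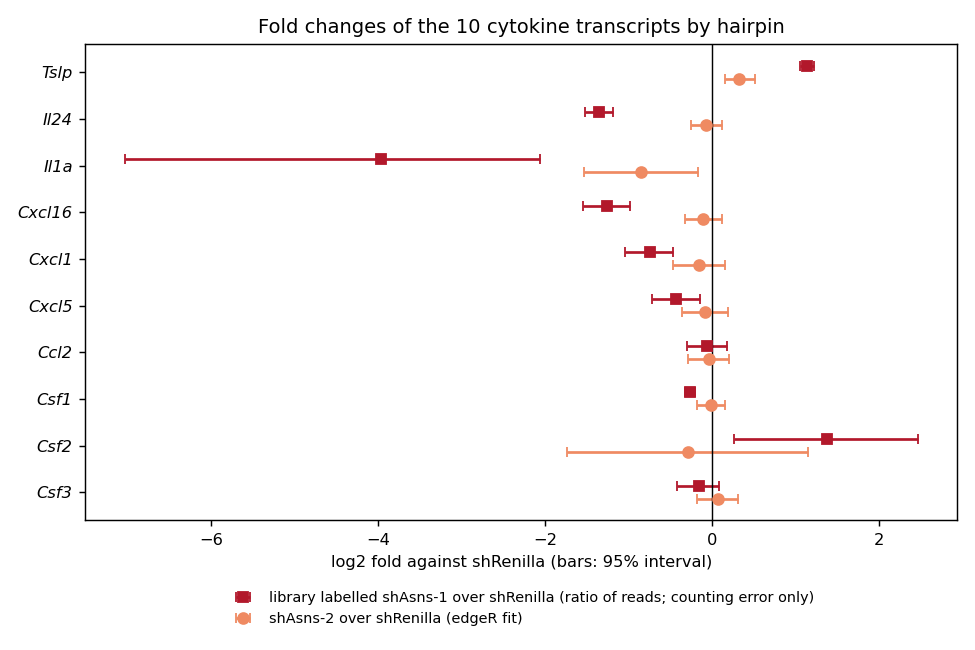
Log2 fold of each transcript against shRenilla, in the library labelled shAsns-1 (squares, ratio of reads with its 95% counting interval) and for shAsns-2 (circles, edgeR fit with its 95% interval). In shAsns-2 the intervals of Tslp and Il1a leave out 0 before adjustment over all genes; the widest intervals belong to Il1a and Csf2, which had the fewest reads.

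The library labelled shAsns-1 also stood apart in its trend with GC content and in several carcinoma markers. Its log2 fold changes against shRenilla were lower for transcripts rich in G and C (Spearman -0.232 over 11700 genes, a description across genes that are no replicates of each other). In shAsns-2 the same measure was 0.0749. The GC content was 40.0% for Tslp, 41.3% for Il1a, 49.1% for Il24 and 51.0% for Cxcl16. With that trend subtracted, the log2 fold change in the library labelled shAsns-1 was 0.99 for Tslp (1.13 before), -1.35 for Il24 (-1.35 before), -4.02 for Il1a (-3.89 before) and -1.24 for Cxcl16 (-1.27 before). Of the 8 carcinoma markers, 5 were lower there by edgeR, 0 higher and 3 not called, against 2.06% of all tested genes lower. These were Esrp1, an epithelial splicing factor (-1.89, adjusted p = 9.2e-05), Krt7 (-0.78, adjusted p = 0.000429), Epcam (-0.69, adjusted p = 0.00259), Cdh1 (-0.48, adjusted p = 0.0135) and Krt19 (-0.55, adjusted p = 0.0459). Without shAsns-2 A or without shAsns-2 B, 3 of them were called, with Cdh1 and Krt19 lost; Krt19 was also lost without shRenilla B (adjusted p = 0.0987) and in DESeq2 (adjusted p = 0.169). In shAsns-2, 0 of the 8 were called by edgeR or DESeq2, where edgeR called 0.0642% of all tested genes. At an unadjusted p under 0.05, 3 were higher in shAsns-2 (Cldn4, Epcam and Krt18) and 1 lower (Krt7), against 9.63% of all tested genes in both directions together. With the replicate letter as a block, Krt7 was called in shAsns-2 (-0.31, adjusted p = 0.0388). The part of these differences in the cytokine values was not tested.

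By centred log2 CPM over the 5 libraries, the genes nearest to each picked transcript were named as a description, and the library labelled shAsns-1 sets most of each pattern. Il24 and Cxcl16 were each other's nearest gene among 8551 compared, with a root mean square difference of 0.0479 on the log2 scale. Macc1 and Dynap came next for both, at 0.0562 and 0.0787 from Il24 and at 0.0502 and 0.0625 from Cxcl16. Nearest to Tslp were Lgr6, a receptor for R-spondins (0.0728), Phex, an endopeptidase (0.0916), and Amigo2, an adhesion protein (0.0953). Nearest to Il1a were the basal keratin Krt14 (0.498), the Wnt ligand Wnt7a (0.539) and the gelatinase Mmp9 (0.574), all farther away. Only genes above a set average level were compared. Il1a itself lay below that level (average log2 CPM 1.13), so genes at its own level could not be named. Its value in the library labelled shAsns-1 rests on 2 reads.

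Several members sit in clusters of related genes, and the related neighbours named here had few or no reads in these cells. Il20, next to Il24, had 0 reads in every library. Il1b, next to Il1a, and Il3, next to Csf2, had 0 to 1 reads. Cxcl2, next to Cxcl1, had 1 to 6 reads, Ppbp, next to Cxcl5, had 5 to 20, and Ccl7, next to Ccl2, had 2 to 4. In the annotation, 5 members overlap another gene. The partners of Tslp (4930455D15Rik, 1 to 4 reads), Il1a (Gm14023, 1 to 7 reads) and Cxcl16 (Zmynd15, 4 to 12 reads) had few reads, and those of the other two members were not analysed here. The strand setting of the counting is not given in the sources used here, so reads of overlapping genes on opposite strands cannot be told apart.

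Promoter sequence was at hand for 4 members, Csf1, Csf2, Cxcl1 and Il1a (RefSeq, GRCm38.p6), and the 250 bases before the RefSeq start of each were searched on both strands. They are shown because NF-kB and AP-1 are the known inducers of these genes. The motifs were the kappaB consensus, AP-1 (TGANTCA) and a C/EBP pair (TTNNGCAA), which 3.90%, 6.75% and 9.56% of 32851 promoter windows of that length held. Capitals mark the matches. Cxcl1 (chr5:90890995-90891244, plus strand) held 2 overlapping kappaB matches, which begin 71 bases before the start. Il1a (chr2:129309973-129310222, minus strand) held an AP-1 match that begins 12 bases before the start. Csf1 (chr3:107760470-107760719, minus strand) held a kappaB match that begins 154 bases before it. The window of Csf2 (chr11:54249900-54250149, minus strand) held 1 C/EBP match; it lies upstream of the GENCODE start given above, and the bases between were not searched. A match describes the letters and shows no binding.
Cxcl1: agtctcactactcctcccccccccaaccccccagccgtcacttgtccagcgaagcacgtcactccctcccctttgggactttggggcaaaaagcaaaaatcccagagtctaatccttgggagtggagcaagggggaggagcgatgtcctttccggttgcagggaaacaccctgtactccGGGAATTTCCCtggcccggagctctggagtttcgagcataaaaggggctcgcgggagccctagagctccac
Il1a: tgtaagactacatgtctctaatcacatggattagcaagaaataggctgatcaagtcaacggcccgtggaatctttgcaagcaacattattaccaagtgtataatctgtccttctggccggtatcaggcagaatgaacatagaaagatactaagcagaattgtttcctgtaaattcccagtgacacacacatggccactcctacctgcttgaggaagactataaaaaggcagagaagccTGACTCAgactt
Csf1: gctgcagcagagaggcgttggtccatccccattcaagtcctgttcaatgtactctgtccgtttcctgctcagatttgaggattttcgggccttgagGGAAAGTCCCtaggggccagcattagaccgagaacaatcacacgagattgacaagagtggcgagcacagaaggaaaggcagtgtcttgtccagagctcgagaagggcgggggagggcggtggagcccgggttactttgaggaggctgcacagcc

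Of 34 other chemokines, 33 were in the count table, which lacked Cxcl15, and 5 were expressed enough to be tested. Of these, 0 were called in either comparison by edgeR or DESeq2 (at an unadjusted p under 0.05, 1 higher in shAsns-2 and 1 lower in the library labelled shAsns-1, against 9.63% and 19.6% of all tested genes in both directions together). Of all tested genes, edgeR called 0.0642% in shAsns-2, and 2.31% as higher and 2.06% as lower in the library labelled shAsns-1. A count of 0 of 5 is near these shares. Cx3cl1, the membrane-bound fractalkine, had 23.2 CPM in the library labelled shAsns-1, 25.5 and 22.8 CPM in shAsns-2, and 20 and 19.2 CPM in shRenilla (log2 fold change in shAsns-2 0.29, unadjusted p = 0.0193, adjusted p = 0.424, edgeR). Ccl25 stood at 4.14 to 6.58 CPM over the libraries, Cxcl10, an interferon-induced chemokine, at 4.32 to 5.39 CPM and Ccl5 at 3.08 to 4.5 CPM. The T cell chemokine Ccl22 and the macrophage chemokine Ccl3 had 0 reads in all libraries.

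Among 46 other interleukins and haematopoietic cytokines, 15 were tested. In the library labelled shAsns-1, Kitl was higher and Lif lower by edgeR, and 13 were not called, against 2.31% and 2.06% of all tested genes. Kitl, or stem cell factor, the ligand of the receptor Kit, had 75.8 CPM in the library labelled shAsns-1, 59.6 and 57.3 CPM in shAsns-2, and 53.8 and 57.3 CPM in shRenilla (log2 fold change in the library labelled shAsns-1 0.45, SE 0.106, adjusted p = 0.0240). Lif, leukemia inhibitory factor, had 45.0 CPM there, 74.9 and 66.3 CPM in shAsns-2, and 66.6 and 61.8 CPM in shRenilla (-0.51, SE 0.120, adjusted p = 0.0234). DESeq2 called neither (adjusted p = 0.0820 for Kitl and 0.0583 for Lif). Without shRenilla A both calls were lost (0.40, adjusted p = 0.0663, and -0.45, adjusted p = 0.0837). Kitl also lost its call when either shAsns-2 library was left out (0.45 each; adjusted p = 0.0622 without A and 0.0602 without B). Some alternatives also called Il11 as higher in the library labelled shAsns-1, though the main fit did not (0.59). These were no filter (0.57), the replicate block (0.65) and shRenilla B left out (0.74). The block also called Thpo as higher (3.67), with 10 reads in the library labelled shAsns-1 and 1 to 6 elsewhere. Thpo reached the 0.72 CPM of the low-count filter only in that library, the one where it was high, so nothing is read from its value. In shAsns-2, 0 of the 15 were called by edgeR or DESeq2, where edgeR called 0.0642% of all tested genes. At an unadjusted p under 0.05 in edgeR there were also 0, against 9.63% of all tested genes. Clcf1 stood at 18.2 to 24.3 CPM over the libraries and Il23a, a subunit of interleukin 23, at 13.0 to 18.2 CPM.

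Receptors for the 10 proteins were mostly at or near the floor. Of 20 listed, 18 were in the count table, which lacked Ackr1 and Ackr2, and 7 were tested. EdgeR called 0.0642% of all tested genes in shAsns-2, and 2.31% as higher and 2.06% as lower in the library labelled shAsns-1. Of the 7 receptors, 0 were called in either comparison by edgeR or DESeq2. At an unadjusted p under 0.05 in edgeR, 2 were higher in each, against 9.63% and 19.6% of all tested genes in both directions together. In shAsns-2 these were Cxcr2, with 7 and 4 reads in shAsns-2 against 1 and 1 in shRenilla, and Cxcr6, with 5 and 14 reads in shAsns-2 against 4 and 4 in shRenilla; the library labelled shAsns-1 had 8 and 2 reads of them. Each reached the level of the low-count filter in 1 library, Cxcr2 in the one labelled shAsns-1 and Cxcr6 in shAsns-2 B. Nothing is therefore read from the count in shAsns-2. In the library labelled shAsns-1 those higher were Cxcr2 and Il1r1 (log2 fold change 3.37 and 0.32). Cxcr2 was tested only through that library, the one where it was high, so nothing is read from that count either. The interleukin 1 receptor was the exception in level. Its chain Il1r1 had 53.3 CPM in the library labelled shAsns-1, 47.1 and 49.5 CPM in shAsns-2, and 43.1 and 42.3 CPM in shRenilla (log2 fold change in shAsns-2 0.18, adjusted p = 0.544, edgeR). Its partner Il1rap had 41.8 CPM in the library labelled shAsns-1, 31.0 and 35.3 CPM in shAsns-2, and 34.0 and 36.6 CPM in shRenilla (-0.08, adjusted p = 0.832). Crlf2, the TSLP receptor chain, had 16 to 28 reads per library and Il20rb 13 to 32. The receptors Ccr2 and Cxcr1 had 0 reads in all libraries, Csf1r 3 to 7 and Csf3r 0 to 3.

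Among proteases that release or process cytokines, the 2 ADAM proteases and the 2 calpains named here were well expressed, while Casp4, at 0.777 to 1.92 CPM, and Casp1 were low. Of 6, 0 were called in shAsns-2 by edgeR or DESeq2, where edgeR called 0.0642% of all tested genes. At an unadjusted p under 0.05 in edgeR there were also 0, against 9.63% of all tested genes. Adam10 and Adam17, the membrane proteases that can shed CXCL16 and, for Adam17, CSF1, stood at 102 to 115 and 167 to 194 CPM over all libraries and were not called in the library labelled shAsns-1. Capn2, a calpain, stood at 207 CPM in the library labelled shAsns-1, 241 and 253 CPM in shAsns-2 and 250 and 270 CPM in shRenilla (log2 fold change in the library labelled shAsns-1 -0.33, adjusted p = 0.0700, edgeR; called when the low-count filter was left off, adjusted p = 0.0270), and Capn1 at 29.3 to 33.3 CPM. Casp1, the protease that activates interleukin 1 beta, was called as higher in the library labelled shAsns-1, as were 2.31% of all tested genes. It had 6.83 CPM there, 4.08 and 2.62 CPM in shAsns-2, and 2.38 and 2.56 CPM in shRenilla (log2 fold change 1.47, SE 0.297, adjusted p = 0.00931, edgeR). That call was lost without shRenilla A (1.41, adjusted p = 0.0702), and DESeq2 gave no adjusted p for it.

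Factors that bind cytokine messenger RNAs and set their decay were not called in either comparison (0 of 9 by edgeR; at an unadjusted p under 0.05, 2 higher in shAsns-2, and 1 higher and 2 lower in the library labelled shAsns-1, against 9.63% and 19.6% of all tested genes in both directions together). In that library some alternatives did call members: Zfp36l1 as lower without shRenilla A (-0.50, adjusted p = 0.0319) and with no filter (-0.40, adjusted p = 0.0228), Rc3h1 as lower without shRenilla B (-0.37, adjusted p = 0.0348), and Rc3h1 as lower and Zfp36l2 as higher with the replicate block (-0.34 and 0.35, adjusted p = 0.0345 and 0.0253). Hnrnpd stood at 441 to 526 CPM, Khsrp at 255 to 313 CPM, Rc3h1 at 234 to 306 CPM and Rc3h2 at 233 to 261 CPM over the libraries. DESeq2 called 0 of the 9. Of all tested genes, edgeR called 0.0642% in shAsns-2, and 2.31% as higher and 2.06% as lower in the library labelled shAsns-1.

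**Figure D4:**
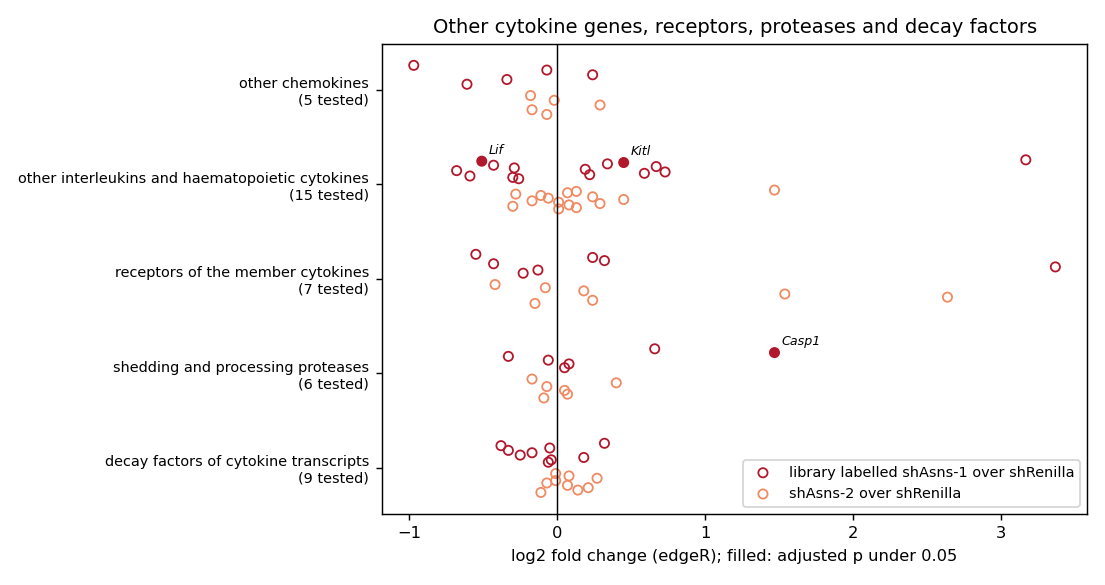
Log2 fold changes (edgeR) of tested genes outside the 10, by list, for the library labelled shAsns-1 and for shAsns-2, each against shRenilla. Filled points passed an adjusted p of 0.05; these were Lif, Kitl and Casp1 in the library labelled shAsns-1 and 0 genes in shAsns-2, and the points far to the right are genes with few reads.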

How the data were processed

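The deposited table held raw read counts per gene for 6 libraries, made by the authors. Per the submitters' processing notes, Bowtie2, HTSeq and mm10 were used; per the labels' protocols, RNA was extracted with Trizol and libraries were made with the Nugen Ovation kit. Versions, annotation and strand setting: not given in the sources used here. Library shAsns-1 B had 0 reads and was dropped, so the fit planned for 6 libraries used 5 (2 residual degrees of freedom), and the single shAsns-1 library was taken to vary as the other groups do. HTSeq's tallies stayed out of library sizes and tests. Reads in no annotated feature made up 36.1 to 38.3% of all reads and unaligned reads 17.9 to 23.2%.

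The fit used edgeR 4.0.16 under R 4.3.3 (filterByExpr, TMM scaling, 1 quasi-likelihood fit over all groups, 12457 genes tested). Benjamini-Hochberg adjustment ran over every tested gene, and calls needed an adjusted p below 0.05. Ratios of the library labelled shAsns-1 carry exact conditional intervals, at 95% and for counting error only; 3 reads, the floor, correspond to 0.188 to 0.291 CPM. Exon lengths, GC content and positions came from GENCODE M21 (GRCm38), and promoters from RefSeq. Libraries of a group were not duplicates (chi-square divided by its degrees of freedom was 3.17 between the shAsns-2 libraries and 9.2 between those of shRenilla).

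The members and gene lists were chosen with earlier results of these data known. Named were Asns, all 10 members, genes called in a list and the 4 highest of each list by shRenilla CPM. The 3 genes nearest to each picked member were also named, with predicted genes and genes of low average level left out. Other genes were named after their values were seen. Alternatives were another scaling, no filter, DESeq2 1.42.0, the replicate letter as a block, shAsns-2 and shRenilla alone, a GC correction and each library left out.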

Additional observations from a re-analysis of the deposited data

Results flagged for a closer look

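Asns, the targeted gene, stood on opposite sides of shRenilla in the 2 hairpins. It had 109 CPM in the library labelled shAsns-1, above both shRenilla libraries (58.7 and 56.2 CPM), while both shAsns-2 libraries (46.5 and 44.7 CPM) were below them. The difference between the hairpins was not tested. None of the 10 cytokine transcripts showed libraries on opposite sides of shRenilla in this way.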

How the results depend on the processing

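In shAsns-2 against shRenilla, 8 genes were called (8 higher, 0 lower); no filter on low counts gave 114 (87 higher, 27 lower), and leaving out a library gave 0 to 47 (0 without shAsns-2 A or shRenilla B, 47 without shRenilla A). For the library labelled shAsns-1, 544 genes were called, 919 with no filter, 253 by DESeq2 and 290 to 825 with a library left out. Of the members, 0 were called in shAsns-2, and 0 under each alternative except the replicate block. With that block, 178 genes were called in shAsns-2 (134 higher, 44 lower), among them 1 member, Tslp (0.33, adjusted p = 0.0217), and 924 in the library labelled shAsns-1. The labels do not say whether the letters A and B mark a shared batch, and this was not tested. Over all tested genes, deviations of libraries with the same letter correlated at -0.017. A value over all genes cannot tell whether some genes share a batch. Over its alternatives Tslp had log2 fold changes of 0.28 to 0.38 in shAsns-2 (adjusted p 0.0217 to 0.998) and Il1a -1.36 to -0.55 (adjusted p 0.18 to 1.0). With a library left out, values near 0 in shAsns-2 changed sign: Il24 spanned -0.15 to 0.00, Cxcl1 -0.37 to 0.10, Cxcl5 -0.23 to 0.08, Ccl2 -0.10 to 0.02, Csf1 -0.05 to 0.02, Csf2 -0.96 to 0.84, Krt19 -0.01 to 0.24 and Esrp1 -0.11 to 0.13; the cause was not tested. Over its alternatives in the library labelled shAsns-1, Tslp spanned 0.99 to 1.18, Il24 -1.43 to -1.27, Cxcl16 -1.33 to -1.20, Il1a -4.04 to -3.66, Cxcl1 -0.95 to -0.48 and Csf2 0.68 to 2.48. Depth limits Csf2 and Il1a, with 3 to 15 and 2 to 48 reads per library.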
